A study of Mus musculus with 2 samples.

Results

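The collagen VI and fibril-associated chains described here are 6 of the 24532 genes in the count table. They were taken by gene symbol and not by a cut on measured values, though with earlier results of these data known. *Col6a1*, *Col6a2* and *Col6a3* encode the main chains of type VI collagen. *Col12a1*, *Col14a1* and *Col16a1* encode type XII, XIV and XVI collagen of the fibril-associated collagens with interrupted triple helices (FACIT). Both libraries came from cardiac myofibroblasts of C57BL/6 mouse hearts taken 3 days after myocardial infarction (MI), the matrix-producing cells that form after injury. Cells without the leukocyte surface protein CD45 were kept after overnight plating, given 12.5 nM control siRNA (siCtrl) or siRNA against *Vgll3* (si*Vgll3*) with the lipid reagent RNAiMAX, and harvested 72 h later. VGLL3 is a cofactor of TEAD transcription factors, and the comparison asks which mRNAs differ when it is depleted.

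Each condition had 1 library, so no test of the conditions was possible and no p-value is given. In these cultures fewer cells of a kind and less RNA per cell cannot be told apart.

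Type VI collagen is assembled inside the cell from chains that join into a triple helix, pair, and pair again before secretion, and the product forms beaded filaments around cells and close to basement membranes. FACIT collagens do not build thick fibrils of their own. They lie on the surface of fibrils made by other collagens, and type XII and type XIV are homotrimers of the chains encoded by *Col12a1* and *Col14a1*. Mutations in the type VI genes cause muscle disorders, and fibroblasts are the main source of the protein in many tissues.

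The libraries held 140815237 reads assigned to genes in siCtrl and 125789276 in si*Vgll3*. *Vgll3* itself was at 202 TPM (the StringTie level, which is corrected for transcript length and library size) in siCtrl and 84.0 TPM in si*Vgll3*, so that 41.6% of its level was left. All 13 fibroblast and myofibroblast markers had a mean above 1 TPM, with a summed level of 21590 TPM with siCtrl and 20076 TPM after si*Vgll3*. Of these 13, 6 were lower and 3 higher by the rule on M given in the next paragraph, from −1.32 in *Fap* to 1.13 in *Cnn1*. Of 10 leukocyte markers, 6 had no read in either library, *Ptprc*, which encodes CD45, among them, and the list summed to 13.4 and 6.10 TPM. The summed markers of endothelial cells (27.2 and 22.8 TPM), pericytes (15.1 and 8.64 TPM) and Schwann cells (2.15 and 1.77 TPM) were low in both. The endothelial sum rests on *Tek* (19.5 and 13.4 TPM), and over the 4 endothelial genes with a mean above 1 TPM the median log2 ratio was 0.22. The pericyte sum rests on *Notch3* (14.1 and 7.97 TPM) and the leukocyte sum on *Lyz2* (10.9 and 3.13 TPM). Other markers of these lists went either way, with log2 ratios of −1.43 in *Myh11*, −0.21 in *Rgs5*, −0.09 in *Cd68* and 0.50 in *Csf1r*. *Kcnj8* had 0 and 24 reads and *Abcc9* 6 and 20. Of 8 cardiomyocyte markers, 6 had no read in either library, *Tnni3* had 0 and 10 reads, and *Tnnt2*, a cardiac troponin, was at 60.0 TPM with siCtrl and 10.4 TPM after si*Vgll3*. The part of these differences in the results was not tested.

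All 6 chains were lower in si*Vgll3*, by very different amounts. The difference is given as M, the log2 of si*Vgll3* TPM over siCtrl TPM, and the mean level as A, the log2 of the mean TPM of the pair. A gene was called lower where M was under −0.5 and A above 0. By this rule 5 of the 6 chains were lower, or 83.3%, beside 11.4% (1341) of the 11754 genes with A above 0, and *Col12a1* alone was not. The median M of the 6 was −1.56, from −2.08 to −0.45, and that of all genes with A above 0 was −0.05. A higher level, M above 0.5, was called in 0 of the 6 chains and in 5.73% of the genes. Brackets after M give a 95% interval that covers counting error only. The same 5 chains had this whole interval under −0.5, which 8.31% of the genes did, and M under −1, which 3.27% did. The last holds for *Col16a1* on TPM only narrowly, its M being −0.98 on counts per library total, −0.99 with TMM scaling, −0.99 with DESeq2 size factors and −0.99 when centred on the median of all genes, so that 4 chains are under −1 in these settings.

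**Figure D1:**
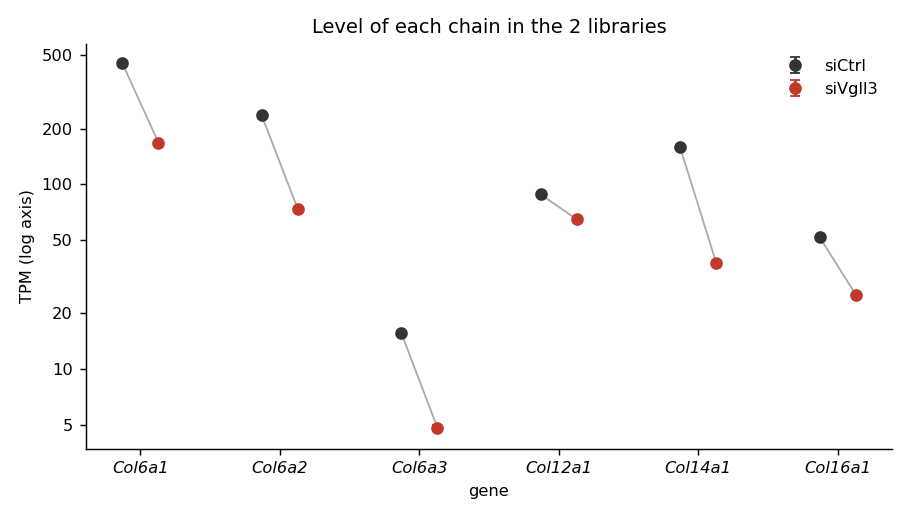
TPM of each gene on a log axis in siCtrl (black) and si*Vgll3* (red), 1 library each, with a 95% counting interval that is mostly narrower than the point. Every line slopes down, *Col14a1* from 159 to 37.4 TPM most steeply and *Col12a1* from 88.2 to 64.6 TPM least, and the order of these 2 genes swaps.

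The type VI chains held both the highest and the lowest level of the 6. *Col6a1* (gene 12833, chr10:76708792-76726168 in mm10, minus strand, 35 exons in its longest coding transcript) encodes the α1(VI) chain. It had 115352 reads and 454 TPM with siCtrl and 39514 reads and 168 TPM after si*Vgll3*, an M of −1.43 [−1.45, −1.42] with 37.0% of the level left. It was the highest of the 6 in both libraries. Of the 386 genes whose A lay within 0.5 of its own, none other had an M as low, and 4.66% were called lower.

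*Col6a2* (gene 12834, chr10:76595762-76623630, minus strand) encodes the α2(VI) chain. Its 56926 reads and 236 TPM in siCtrl stood against 16295 reads and 73.2 TPM after si*Vgll3*, which gives an M of −1.69 [−1.72, −1.66], and 31.0% was left. Among 807 genes of like mean level, 2 had an M at or under this value, *Col6a2* included.

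*Col6a3* (gene 12835, chr1:90765923-90843971, minus strand) encodes the long α3(VI) chain. It was the lowest of the 6 in both libraries, with 10852 reads and 15.7 TPM with siCtrl and 3050 reads and 4.82 TPM after si*Vgll3*. Its M was −1.71 [−1.76, −1.65], with 30.7% left. Among 1841 genes of like mean level, 17 had an M at or under its own.

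*Col6a2* and *Col6a3* had almost the same relative difference, whereas *Col6a1* kept more of its level. The gap in M between chains was taken from the reads alone, since library scaling drops out of it. *Col6a1* minus *Col6a2* was 0.26 [0.23, 0.29] and *Col6a1* minus *Col6a3* was 0.29 [0.23, 0.35] on the log2 scale. *Col6a2* minus *Col6a3* was 0.03 [−0.04, 0.09], an interval that holds 0 and leaves out differences beyond these bounds as far as counting error goes.

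The TPM ratio of *Col6a1* to *Col6a2* therefore went from 1.92 in siCtrl to 2.30 in si*Vgll3*, and that of *Col6a1* to *Col6a3* from 28.9 to 34.9. The ratio of *Col6a2* to *Col6a3* was 15.0 and 15.2. The chains join in equal number in the protein, but their mRNA levels were far from equal in both libraries. Levels set between genes rest on the transcript lengths behind TPM. With reads per kb of all annotated exons in its place, *Col6a1* to *Col6a2* was 3.85 and 4.61, and *Col6a1* to *Col6a3* was 29.0 and 35.4.

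The FACIT chains held the extremes of the group. *Col14a1* (gene 12818, chr15:55307750-55520803, plus strand) encodes type XIV collagen. It had 65356 reads and 159 TPM with siCtrl and 14260 reads and 37.4 TPM after si*Vgll3*. Its M was −2.08 [−2.11, −2.06], the lowest of the 6, and 23.6% of the level was left. It ranked 51 from the lowest M among the 11754 genes, and 4 of the 1164 genes of like mean level were at or under its M.

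*Col12a1* (gene 12816, chr9:79598991-79718831, minus strand) encodes type XII collagen, the nearest relative of type XIV among these chains. Against its 65956 reads and 88.2 TPM with siCtrl it had 44734 reads and 64.6 TPM after si*Vgll3*, and M was −0.45 [−0.47, −0.43]. Here 73.3% of the level was left, and the value fell just short of the −0.5 rule with its whole interval. It ranked 1561 from the lowest M, with 122 of 1405 genes of like mean level at or under it.

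*Col16a1* (gene 107581, chr4:130047840-130099283, plus strand) encodes type XVI collagen, found with fibrils and with microfibrils. It was at 51.8 TPM (17205 reads) with siCtrl and at 25.3 TPM (7782 reads) after si*Vgll3*. Its M of −1.03 [−1.07, −0.99] lay between those of the other FACIT chains, and 48.9% was left. Among 1941 genes of like mean level, 29 were at or under its M.

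The relatives *Col12a1* and *Col14a1*, with nearly equal read numbers in siCtrl, were apart by 1.64 [1.60, 1.67] in M. *Col12a1* minus *Col16a1* was 0.58 [0.54, 0.63], and *Col16a1* minus *Col14a1* was 1.05 [1.01, 1.10]. Of the 15 pairs among the 6 chains, 14 had an interval of the difference that left out 0, the exception being *Col6a2* with *Col6a3*. In siCtrl *Col14a1* was the higher of the pair, with 0.555 TPM of *Col12a1* for each TPM of *Col14a1*, and in si*Vgll3* this ratio was 1.73.

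The order of levels in TPM was *Col6a1*, *Col6a2*, *Col14a1*, *Col12a1*, *Col16a1* and *Col6a3* in siCtrl. In si*Vgll3* it differed in the exchange of *Col14a1* and *Col12a1*. No neighbours in either order overlapped in their counting intervals. The spread between cultures is not known, with 1 library each. The closest neighbours were *Col6a2* and *Col12a1* in si*Vgll3*, 1.13 times apart. With reads per kb of exon in place of TPM, *Col6a2* lay under *Col14a1* in both libraries (ratios of 0.734 and 0.963) and under *Col12a1* in si*Vgll3* (0.666), so that its place in the order depends on the length used.

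**Figure D2:**
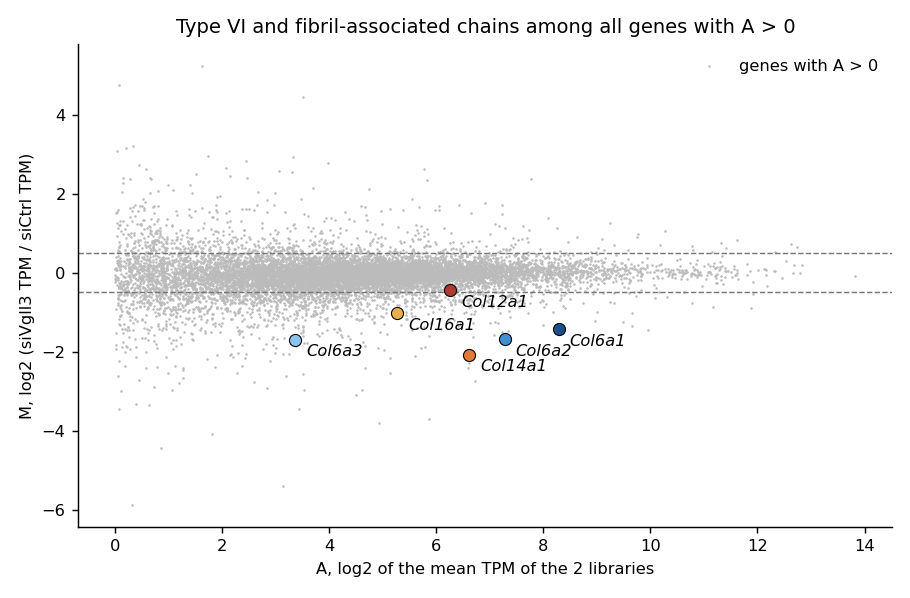
M against A for the 11754 genes with A above 0 (grey) and the 6 collagen chains (coloured), with dashed lines at −0.5 and 0.5. The type VI chains, *Col14a1* and *Col16a1* lie under the lower line, from −1.03 to −2.08, and *Col12a1* sits just above it at −0.45.

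Taken as sums, the 6 genes made 1005 TPM with siCtrl and 374 TPM after si*Vgll3*, and 37.2% was left. The type VI chains summed to 706 and 246 TPM (34.9% left, M of the sum −1.52) and the FACIT chains to 299 and 127 TPM (42.6% left, M of the sum −1.23). The 38 other collagen genes of the table, of which 28 had TPM values, summed to 16650 and 10390 TPM. Of this sum 62.4% was left, an M of the sum of −0.68. As a share of all collagen TPM the 6 genes went from 5.69% to 3.47%. Within the group the share of *Col14a1* went from 0.899% to 0.348% of collagen TPM, while that of *Col12a1* was higher in si*Vgll3*, at 0.600% against 0.499%, although its own level was lower.

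Among the 23 collagen genes with A above 0, *Col14a1* had the lowest M, *Col6a3* and *Col6a2* ranked 3 and 4, *Col6a1* and *Col16a1* ranked 6 and 7, and *Col12a1* ranked 18. Between them were 2 genes from the mixed list of network and other collagens. These were *Col28a1*, at rank 2 with M −2.07 [−2.15, −1.99] (23.8 and 5.67 TPM), and *Col15a1*, at rank 5 with M −1.54 [−1.62, −1.46].

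The fibrillar collagens, which build the fibrils that FACIT collagens coat, had 8 genes with A above 0, of which 6 were called lower and 0 higher. Their median M was −0.81, from −0.97 in *Col11a1* to −0.44 in *Col5a2*, so that 5 of the 6 chains lay under the whole range of the fibrillar genes and *Col12a1* near its top. *Col1a1*, *Col1a2* and *Col3a1*, the most abundant of them, had M of −0.90, −0.53 and −0.86. The network and other collagens had 9 genes with A above 0, with 5 lower, 1 higher and a median M of −0.74. Their values ranged from −2.07 in *Col28a1* to 1.00 in *Col7a1*, the anchoring fibril collagen. The basement membrane chains *Col4a1* and *Col4a2* were at −0.39 and −0.24, and *Col8a1* was at −0.74.

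**Figure D3:**
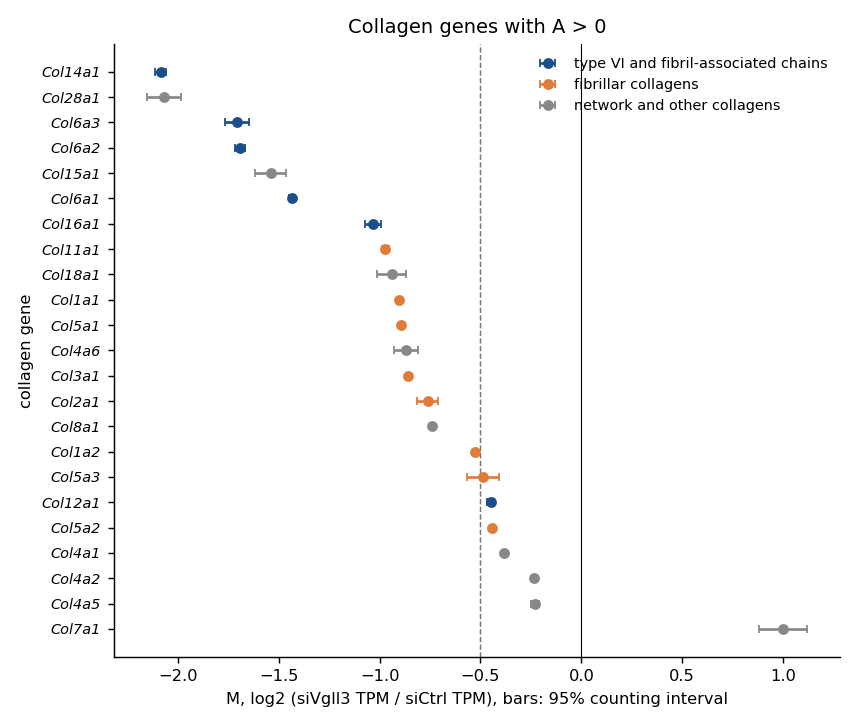
M of the 23 collagen genes with A above 0, lowest at the top, with 95% counting intervals as bars and dashed and solid lines at −0.5 and 0. The type VI and fibril-associated chains (blue) take ranks 1, 3, 4, 6, 7 and 18, the fibrillar genes (orange) span −0.97 to −0.44, and *Col7a1* alone lies to the right of 0.

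Further chains of both families were scarcely present. Of 9 other type VI and FACIT genes in the count table, none reached A above 0. *Col6a4* and *Col6a5*, which encode alternatives to the α3(VI) chain, and *Col22a1* had 0 reads in both libraries, where a count of 0 allows up to 3. *Col6a6*, another alternative chain, had 17 reads with siCtrl and 0 after si*Vgll3*. Its share of the library's reads was 5.06-fold lower if the 0 is set to that allowance of 3. The 17 reads are taken as exact in this, so that it is no lower bound. *Col9a1* had 18 and 0 reads, 5.36-fold lower by the same reckoning.

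*Col9a2*, which encodes a type IX chain best known from cartilage, had 150 and 7 reads, or 0.850 and 0.0414 TPM. Its partner *Col9a3* had 81 and 22 reads, *Col20a1* 37 and 26, and *Col19a1* 5 and 22. On reads scaled by the library totals, M was −4.26 [−5.60, −3.18] for *Col9a2*, −1.72 [−2.47, −1.02] for *Col9a3*, −0.35 [−1.13, 0.42] for *Col20a1* and 2.30 [0.86, 4.06] for *Col19a1*. The interval of *Col20a1* holds 0. *Col21a1* was not among the 44 collagen genes of the count table, so it could not be analysed here.

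Cell surface receptors of type VI and XVI collagen were spread widely in M. Of 6 receptor genes with A above 0, 3 were called lower and 0 higher, with a median M of −0.55. *Itga11*, an α subunit of a collagen-binding integrin, had the lowest M, −1.86 [−1.95, −1.78], at 16.4 TPM with siCtrl and 4.50 TPM after si*Vgll3*, close to *Col6a3* in level and in M. *Antxr1*, which encodes a receptor for type VI collagen and anthrax toxin, was at 79.5 and 44.1 TPM, an M of −0.85. *Antxr2*, its relative, which takes up type VI collagen, had an M of −0.25. The shared integrin subunit *Itgb1*, at 1101 and 1004 TPM, and *Itga3* had M of −0.13 and 0.04.

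Matrix partners, proteins that bind these collagens or lie beside them, had 15 genes with A above 0, with 8 lower, 1 higher and a median M of −0.51. The proteoglycans *Bgn* and *Dcn*, which bind type VI collagen, had M of −0.34 and −0.26, and fibronectin (*Fn1*) was at 0.04. *Matn4*, a matrilin, which links type VI filaments to other matrix, had the lowest M, −4.09, at 6.61 TPM with siCtrl and 0.387 TPM after si*Vgll3*. *Tnxb*, which encodes tenascin-X, a protein that binds type XII and XIV collagen, had the highest, 1.53, at 1.72 and 4.97 TPM.

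Genes that fold and hydroxylate collagen chains had M nearer to 0 at their median than the chains. Of 17 with A above 0, 6 were called lower and 0 higher, with a median M of −0.33. The collagen chaperone *Serpinh1* (HSP47) was at 0.43, *P4hb* and *Ppib* at −0.33 and −0.18, and the prolyl hydroxylase subunit *P4ha3* had the lowest, −1.01. The processing and cleavage list had 8 genes with A above 0, with 3 lower, 1 higher and a median M of −0.23. *Mmp11*, a protease that cleaves the α3(VI) chain, had an M of −0.72, and the protease inhibitors *Timp1*, *Timp2* and *Timp3* were at 0.67, −0.39 and 0.10.

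**Figure D4:**
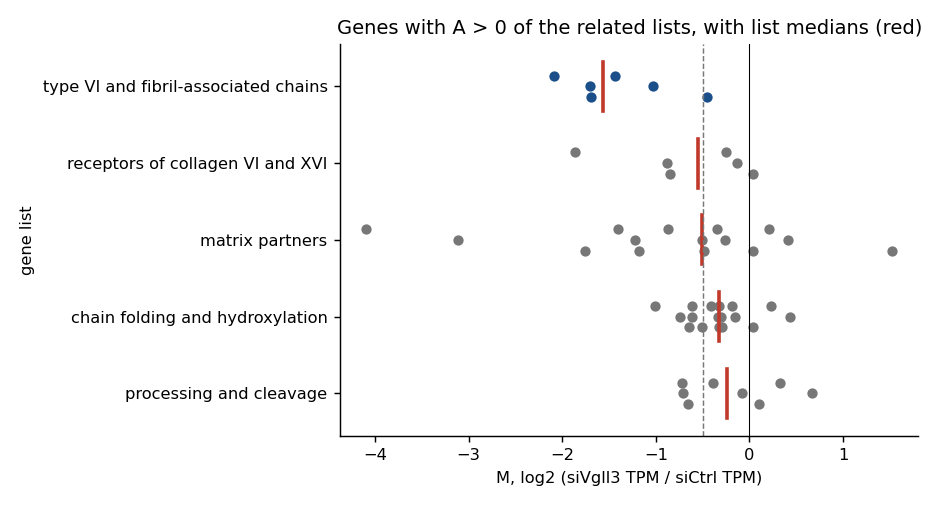
M of each gene with A above 0 in the group of 6 chains (blue) and in the lists of receptors, matrix partners, folding and processing genes (grey), with the median of each list as a red bar and lines at −0.5 (dashed) and 0. The medians run from −1.56 in the chains to −0.55, −0.51, −0.33 and −0.23 in the lists.

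The 6 genes lie on 5 chromosomes. *Col6a2* and *Col6a1* are neighbours on chromosome 10 in the same orientation, 85.2 kb apart with no protein-coding gene between them, and both were lower. Of the 10 other flanking protein-coding genes, 7 had A above 0, and 6 of these were not called lower. Over all genes with A above 0, 11.4% were called lower, and 7 genes are too few to set against that share. *Pcbp3*, next to *Col6a1*, had an M of 0.14, *Cops8*, next to *Col6a3*, 0.13, and *Mrpl13*, next to *Col14a1*, 0.05. *Deptor*, on the other side of *Col14a1*, was the 1 called lower, at −1.04 (4.25 and 2.07 TPM). Below the limit on A, *Adgrb2*, beside *Col16a1*, had 335 and 173 reads with an M of −0.87 [−1.14, −0.60], and *Mlph*, beside *Col6a3*, had 37 and 10 reads with an M of −1.75 [−2.92, −0.72]. *Ftcd*, beside *Col6a2*, had 0 reads in both. Genes of other kinds overlap 3 of the chains in the annotation, *Col6a3*, *Col12a1* and *Col14a1*. The gene that overlaps *Col6a3* lies on the same strand, so strand alone would not set its reads apart. Those that overlap *Col12a1* and *Col14a1* lie on the opposite strand. Their reads could not be told apart from those of these chains where strand was not used in counting. The strand setting is not given in the sources used here.

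Genes of most similar level in both libraries were sought by the distance over log2 TPM, a likeness over 2 libraries only. Among 11162 genes compared, *Emilin1* and *Olfml3* lay nearest to *Col6a1*, at 0.316 and 0.385, and *Prelp* and *Gas6* nearest to *Col6a2*, at 0.131 and 0.215. *Map3k7cl* and *Itga11* lay nearest to *Col6a3* (0.0385 and 0.116), and *Arxes2* and *Dhcr7* nearest to *Col16a1* (0.0678 and 0.0706). *Chsy1* and *Creld2* were nearest to *Col12a1* (0.0387 and 0.0487), and *Pdlim3* and *Tmem176a* to *Col14a1* (0.162 and 0.298).

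The study also dealt with the microRNA miR-29b, so the 3′ UTRs of the chains were read for matches to the miR-29 seed. A microRNA guides the silencing complex to mRNAs whose 3′ UTR pairs with its seed, bases 2 to 8. The mature sequences, from RefSeq for GRCm38.p6, are shown because all of the family share the seed, which is in capitals.

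mmu-miR-29a-3p: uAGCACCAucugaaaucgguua

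mmu-miR-29b-3p: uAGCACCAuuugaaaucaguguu

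mmu-miR-29c-3p: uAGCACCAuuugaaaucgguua

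In the transcript with the longest coding sequence, *Col6a1*, *Col6a2* and *Col16a1* each held 1 match on the transcribed strand. *Col6a3* has no annotated 3′ UTR in that transcript and held 1 match in its longest annotated 3′ UTR. The sites are shown in mm10 with the 14 or 15 transcript bases before them, the match being in capitals, since they mark which chains carry the seed complement and which do not.

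Col6a1, chr10:76709015-76709021, minus strand: cactctgaaagcaaaGGTGCTA

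Col6a2, chr10:76596170-76596177, minus strand: ctccatcccatctgTGGTGCTA

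Col6a3, chr1:90767411-90767418, minus strand: gtgacctgtcaataTGGTGCTA

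Col16a1, chr4:130099268-130099274, plus strand: tccatggggttccccTGGTGCT

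The sites of *Col6a2* and *Col6a3* pair with all seed bases and have an A opposite base 1 of the microRNA, *Col16a1* lacks that A, and *Col6a1* pairs with bases 2 to 7 and has the A. A site of any of these kinds occurred in 10.4% of genes with a 3′ UTR within 1.25 times the length of that of *Col6a1* (767 nt). The shares were 6.90% for *Col6a2* (451 nt), 4.19% for *Col16a1* (185 nt) and 10.8% for *Col6a3* (732 nt). The genes compared were read in the transcript of their longest coding sequence. For *Col6a3* the longest 3′ UTR was taken instead, so its share is not on a like footing. Another transcript of *Col6a2*, with a 3′ UTR of 1763 nt that ends elsewhere, had a site of its own, and the longest *Col16a1* 3′ UTR, of 1841 nt, had 2.

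*Col12a1* and *Col14a1* had no match in 3′ UTRs of 2178 and 789 nt, where 27.2% and 11.1% of genes of like length had at least 1. The chains without a site were thus those with the highest and the lowest M of the 6, −0.45 and −2.08, and those with a site lay between them. Over 10923 genes with A above 0 and a 3′ UTR, 1953 (17.9%) had a site, and the median M was −0.08 with and −0.04 without. Of 21 collagen genes with a 3′ UTR in the transcript of the longest coding sequence, 18 had a site, with a median M of −0.81. *Col6a3* and *Col18a1* have no 3′ UTR in that transcript and are left out of this count. The 3 without a site, *Col12a1*, *Col14a1* and *Col28a1*, had M of −0.45, −2.08 and −2.07, too few for a comparison. A relation of sites to M was not tested. A match is a description of sequence. The microRNAs themselves were not measured by these mRNA libraries, in which the 4 miR-29 genes had 0 reads.

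**Figure D5:**
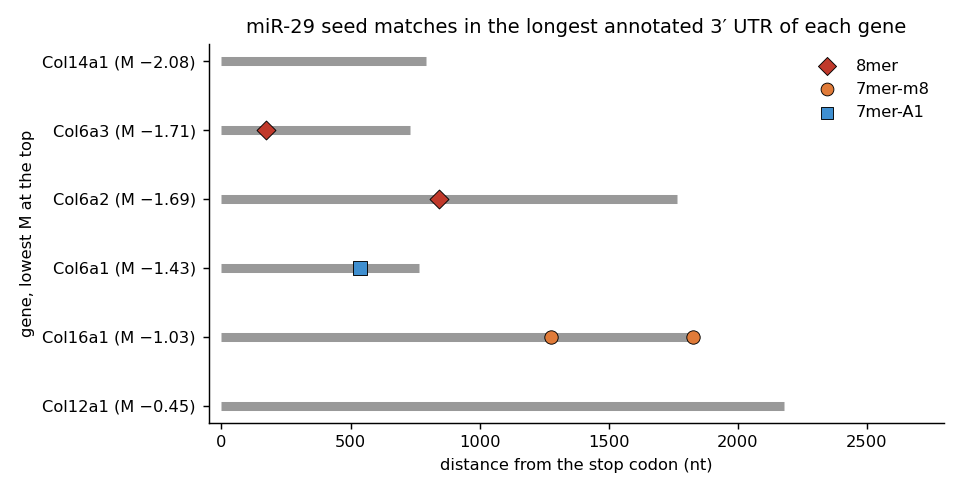
The longest annotated 3′ UTR of each gene as a grey bar, in nt from the stop codon, with miR-29 seed matches as symbols (8mer, all seed bases and the A; 7mer-m8, without the A; 7mer-A1, bases 2 to 7 and the A) and genes ordered by M. *Col6a3*, *Col6a2* and *Col6a1* carry 1 match and *Col16a1* carries 2, while *Col14a1* at the top (−2.08) and *Col12a1* at the bottom (−0.45) carry none.

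The core letters of the TEAD binding motif, GGAATG, were searched on both strands of promoter windows that run from 250 bases before to 50 after the gene start. RefSeq gave windows for *Col6a1*, *Col6a2*, *Col6a3* and *Col16a1*. A match was present in 1 of 2 windows of *Col6a2* and in none of the others, and 14.7% of 32851 windows over all genes held at least 1. These letters in this window are the whole of what was read.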

How the data were processed

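Libraries were made by the authors with the TruSeq Stranded mRNA LT kit and sequenced on an Illumina NovaSeq instrument. Per the methods and the submitters' processing notes, reads were trimmed with Trimmomatic (reads under 36 bp removed), mapped to mm10 with HISAT2 and assembled with StringTie. The deposited read counts per gene are raw, and the deposited TPM values were computed by the authors. Tool versions, annotation and strand setting are not given in the sources used here. TPM is present for 14158 genes.

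M and A were computed from TPM, which takes transcript length from the authors' pipeline. Intervals are 95% Clopper-Pearson intervals of the read ratio shifted onto the TPM ratio, and Poisson intervals for levels. Differences between chains use the reciprocals of the 4 counts. All of these intervals cover counting error only. Those of ratios and differences were checked on counts drawn with Poisson error alone, which cannot show the spread between cultures. No deposited fold change was used. Positions, transcripts and 3′ UTRs came from GENCODE vM21 (GRCm38). Scaling alternatives used edgeR 4.0.16 and DESeq2 1.42.0 normalisation factors in R 4.3.3, and the rest Python 3.11.15 with scipy 1.17.1.

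All 6 chains and the other type VI and FACIT genes were named, and the lists of related genes were given by counts and medians. Genes named from a list were the 3 of highest mean TPM and those of lowest and highest M with A above 0 and a minimum of 50 reads in either library. *Col15a1*, the chromosomal neighbours and some cell type markers were added to these after their values were seen. The chains and lists were chosen with earlier results of these data known.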

Additional observations from a re-analysis of the deposited data

How the results depend on the processing

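The count of 5 chains called lower was the same under all 13 alternatives of scaling, pseudocount, filter, centring, threshold and depth. The filters on A and on reads could not change it, since the lowest A of the chains was 3.36 and their lowest read number 3050. The threshold of 1 was applied to M from TPM only. On counts per library total *Col16a1*, at −0.98, falls short of that threshold. The median M of the chains ranged from −1.56 to −1.48 (1 TPM added). *Col12a1* ranged from −0.45 to −0.40 and *Col6a3*, the lowest in level, from −1.71 to −1.52. With a threshold of 1 on M, the number called lower was 0 for fibrillar collagens, 2 for network and other collagens, 1 for receptors, 1 for folding and 0 for processing genes, and with A above 2 it was 5 for matrix partners. By construction fewer genes are then called. Among all genes 384 were lower at a threshold of 1 and 2103 without a filter on A. The level of *Col6a2* over *Col14a1*, above 1 in TPM, reversed to 0.734 in siCtrl and 0.963 in si*Vgll3* with reads per kb of exon. *Col6a2* over *Col12a1* did so too, to 0.666 in si*Vgll3*. These levels depend on the length used. All annotated exons of *Col6a2* span 8326 bases against 3949 in its longest coding transcript, beside 7013 against 6457 for *Col14a1* and 15228 against 11511 for *Col12a1*. No paired analysis was possible because there was a single library for siCtrl and for si*Vgll3*, and neither could be left out. Features of the encoded proteins were not run. Depth limits the chains little, the widest interval of M being 0.117 across, but among the other type VI and FACIT genes, with at most 150 reads, it leaves *Col20a1* and the genes with 0 reads in both libraries unresolved.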
